A study of Mus musculus with 24 samples.

Results

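Ribosome biogenesis factors are the proteins that cut, modify and fold ribosomal RNA and load ribosomal proteins onto it, without being part of the finished ribosome. A set of 35 such genes was chosen by name, and each was read from the brightest probe set that carries its symbol alone, out of 19938 genes measured in that way. All 35 were on the array. The values come from liver RNA of 24 male litter mates aged 24 weeks, with 150 ng of RNA and 1 Affymetrix Mouse Gene 1.0 ST array per mouse. The 3 genotypes share the C57Bl6 background and hold 8 mice each. C57Bl6 mice carry no transgene. In alb-SREBP-1a mice the albumin promoter, which is active in hepatocytes, drives the nuclear, N-terminal part of SREBP-1a, a human transcription factor of lipid synthesis. In alb-SREBP-1a∆P mice the same promoter drives a form of that part without its MAPK phosphorylation sites.

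Ribosomes are built mainly in the nucleolus, where RNA polymerase I transcribes a long precursor RNA. The small subunit processome, with its UTP-A and UTP-B subcomplexes, assembles on this precursor, while small nucleolar ribonucleoproteins of the box C/D and box H/ACA classes methylate it or convert uridines to pseudouridines. Large subunit precursors mature through factors such as the PeBoW complex, and both subunits are finished in the cytoplasm. The liver is a major site of protein synthesis, and expression of these genes is known to follow growth and nutrient state.

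In alb-SREBP-1a∆P liver the ribosome biogenesis genes were expressed below the level of both other genotypes, while few of them passed the test in alb-SREBP-1a liver. Against C57Bl6, 28 of 35 members fell in alb-SREBP-1a∆P liver, none rose and 7 did not pass the test. In alb-SREBP-1a liver 4 fell, 1 rose and 30 did not pass the test. Of the 35, 27 had a negative estimate there, with a median log2 change of −0.14. Among all 35556 probe sets 16953 did, with a median of 0.01. Between the transgenic lines 27 were lower in alb-SREBP-1a∆P, none was higher and 8 did not pass the test. At an unadjusted p under 0.05, and by the methods' t-test after Benjamini-Hochberg adjustment, 0 members were likewise higher in alb-SREBP-1a∆P in these comparisons. In alb-SREBP-1a against C57Bl6, 12 were lower and 2 higher at an unadjusted limma p under 0.05. The share of all probe sets at that unadjusted level was not counted. The largest change was that of Brix1, an assembly factor of the large subunit, at −1.56 ± 0.13 (SE, n = 8 per genotype) on the log2 scale in alb-SREBP-1a∆P against C57Bl6. Changes are given throughout as log2 fold changes ± standard error from limma, and a change is called where the adjusted p, taken over the 35556 probe sets tested, was below 0.05. The comparisons against C57Bl6 share their control arrays, and each transgenic line enters the comparison of the lines again.

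These counts have to be read against the whole array. In alb-SREBP-1a∆P against C57Bl6, 20.2% of all probe sets were lower and 27.0% higher, whereas 80% of the members were lower. Between the transgenic lines, 21.4% of all probe sets were lower and 22.8% higher in alb-SREBP-1a∆P, and 77.1% of the members were lower. In alb-SREBP-1a against C57Bl6, 3.98% were lower and 6.77% higher, beside 11.4% and 2.86% of the members. The members were brighter than most of the array: 34 of 35 had a mean above the median probe set, the exception being Nol10. Among the 17778 probe sets above the median level, 37.5% were lower in alb-SREBP-1a∆P against C57Bl6, 40.2% in the comparison of the lines and 7.1% in alb-SREBP-1a against C57Bl6. The median change of the members was −0.48 in alb-SREBP-1a∆P, with a median of 0.11 over all probe sets and of −0.13 over the brighter ones.

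The deposited values were less spread on the alb-SREBP-1a∆P arrays, where their standard deviation over all probe sets ran from 2.02 to 2.09, than on C57Bl6 arrays (2.18 to 2.25) or alb-SREBP-1a arrays (2.14 to 2.23). Its part in the members' values was not tested. After cyclic loess, which removes trends with brightness, 18 members were lower in alb-SREBP-1a∆P against C57Bl6 and 1 (Fbl) was higher, with 15.3% of all probe sets lower. After quantile normalization 22 were lower, with 18.8% of all probe sets. The members' median change was −0.31 and −0.42 under these scalings. Hepatocyte transcripts were strong on every array, with Alb between 14.0 and 14.4. Of 6 hepatocyte markers, 4 were lower in alb-SREBP-1a∆P against C57Bl6, at a median of −0.16 and from −0.44 (Cps1) to −0.01 (Cyp2e1). In alb-SREBP-1a 1 of the 6 (Cps1, −0.29) was lower, and between the lines, where 27 members were lower, none of the 6 passed the test (−0.15 for Apob to −0.05 for Alb, with 2 lower at an unadjusted p under 0.05). The C57Bl6 means of these markers, from 12.9 (Apob) to 14.3 (Alb), lay near the top of the range, where the highest value of any probe set was 14.98. Whether signals this bright still follow a loss of RNA was not tested, so the markers do not settle the share of hepatocytes. In bulk liver, fewer cells of a type and less RNA per cell cannot be told apart.

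**Figure D1:**
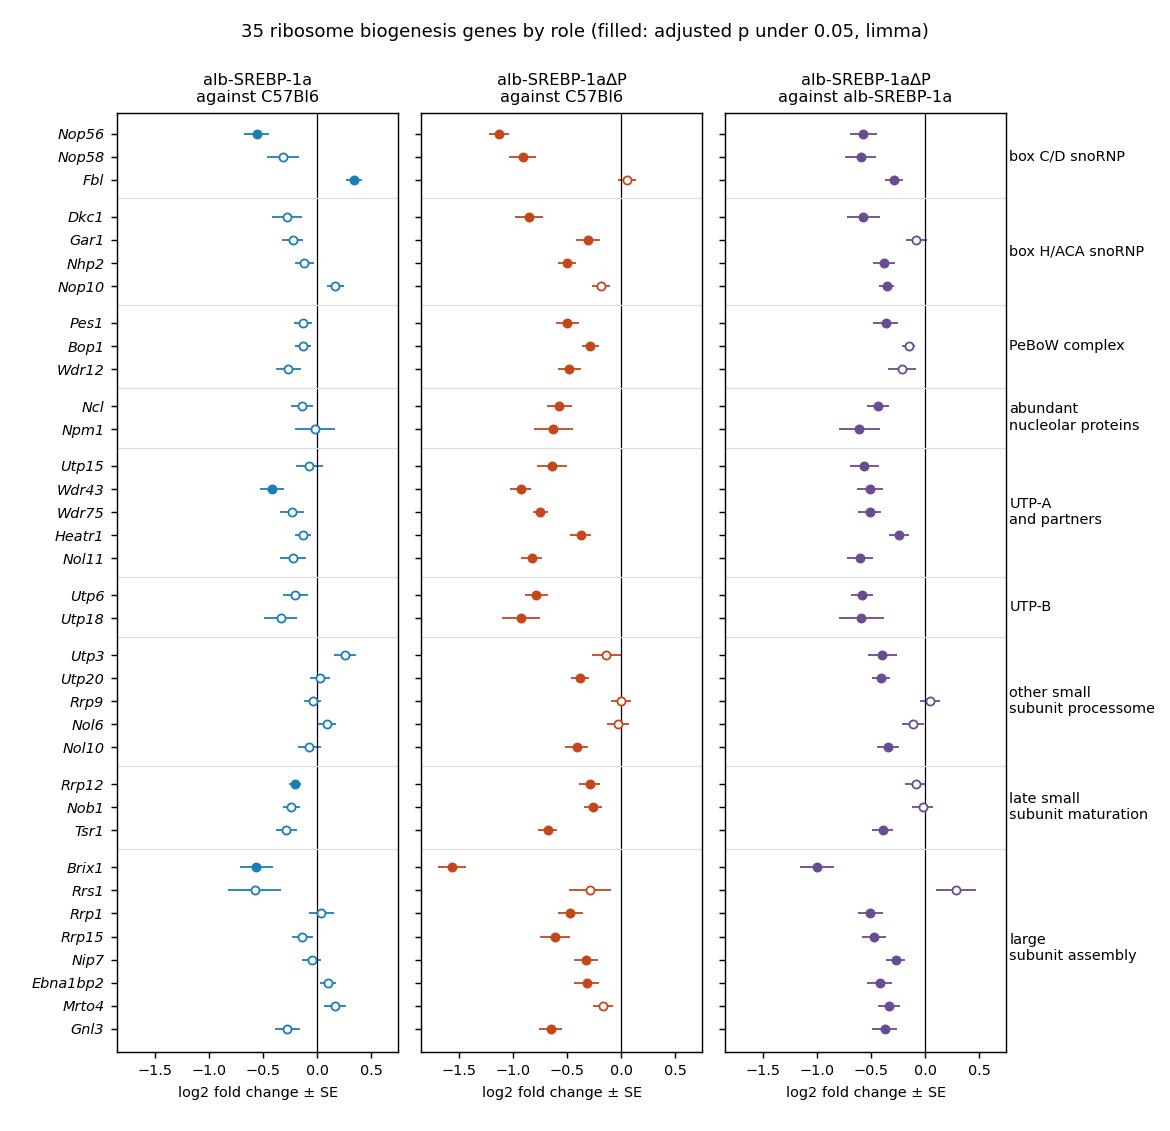
Log2 fold change (x axis, ± standard error) of each of the 35 members, grouped by role along the y axis, in 3 comparisons of 8 against 8 arrays. Filled points passed an adjusted p of 0.05 (limma): 5 in alb-SREBP-1a against C57Bl6, 28 in alb-SREBP-1a∆P against C57Bl6 and 27 between the transgenic lines, nearly all to the left of 0.

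The box C/D proteins form the core of the particles that guide ribose methylation of ribosomal RNA. Nop56, a scaffold protein of these particles, stood between 8.11 and 8.46 (median 8.32) in C57Bl6, between 7.20 and 8.06 (7.84) in alb-SREBP-1a and between 6.84 and 7.45 (7.20) in alb-SREBP-1a∆P, in log2 units. Every array of either transgenic line lay below every C57Bl6 array, and the lines overlapped each other. Nop56 fell by 0.56 ± 0.11 in alb-SREBP-1a (adjusted p = 0.00367) and by 1.13 ± 0.09 in alb-SREBP-1a∆P (adjusted p = 1.21e-07), and the difference between the lines was −0.57 ± 0.13 (adjusted p = 0.00227). Its partner Nop58 ranged from 5.84 to 6.70 (median 6.36) in C57Bl6, from 5.30 to 6.36 (6.10) in alb-SREBP-1a and from 4.96 to 5.79 (5.35) in alb-SREBP-1a∆P. Only the alb-SREBP-1a∆P arrays were clear of the C57Bl6 range. Nop58 fell by 0.91 ± 0.13 in alb-SREBP-1a∆P (adjusted p = 3.02e-05) and differed by −0.60 ± 0.15 between the lines (adjusted p = 0.00424), while −0.32 ± 0.15 in alb-SREBP-1a did not pass the test (adjusted p = 0.192). Between the lines the call of Nop56 was lost after cyclic loess, and the other calls of both genes in alb-SREBP-1a∆P remained after both scalings.

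Fbl, the methyltransferase fibrillarin, was the only member that rose in any comparison, and it did so by its brightest probe set only. Its brightest probe set lay between 7.56 and 7.90 (median 7.70) in C57Bl6, between 7.88 and 8.30 (8.01) in alb-SREBP-1a and between 7.58 and 8.03 (7.75) in alb-SREBP-1a∆P. The alb-SREBP-1a arrays were the highest, with a slight overlap at the edge of the C57Bl6 range. Fbl rose by 0.34 ± 0.07 in alb-SREBP-1a (adjusted p = 0.00528), stood at 0.05 ± 0.08 in alb-SREBP-1a∆P (adjusted p = 0.592) and differed by −0.29 ± 0.09 between the lines (adjusted p = 0.0144). A second probe set of Fbl differed, with −0.15 ± 0.09 in alb-SREBP-1a (adjusted p = 0.314), −0.24 ± 0.09 in alb-SREBP-1a∆P (adjusted p = 0.0393) and −0.09 ± 0.11 between the lines (adjusted p = 0.495). The direction of Fbl therefore depends on the probe set and is uncertain. The call between the lines was also lost after quantile normalization and cyclic loess.

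Of the box H/ACA proteins, which carry out pseudouridylation, 3 of 4 fell in alb-SREBP-1a∆P against C57Bl6. Dkc1, the pseudouridine synthase dyskerin, ranged from 6.60 to 7.29 (median 6.95) in C57Bl6, from 5.97 to 6.95 (6.80) in alb-SREBP-1a and from 5.72 to 6.62 (6.08) in alb-SREBP-1a∆P. The highest alb-SREBP-1a∆P array, replicate 1, reached just into the C57Bl6 range. Dkc1 fell by 0.85 ± 0.13 in alb-SREBP-1a∆P (adjusted p = 5.03e-05), and by 0.57 ± 0.15 against alb-SREBP-1a (adjusted p = 0.00704). The structural partners Nhp2 and Gar1 fell by 0.50 ± 0.08 and 0.31 ± 0.11 in alb-SREBP-1a∆P against C57Bl6. Nop10, the smallest subunit of the particle, stood at −0.19 ± 0.08 (adjusted p = 0.0681) and at 0.17 ± 0.08 in alb-SREBP-1a (adjusted p = 0.217). Between the lines Nop10 differed by −0.36 ± 0.07 (adjusted p = 8.85e-04), and all 8 alb-SREBP-1a∆P arrays lay below the alb-SREBP-1a arrays. By limma no box H/ACA gene passed in alb-SREBP-1a against C57Bl6, and 1 did at an unadjusted p under 0.05. The call of Gar1 was lost after quantile normalization and cyclic loess, as were those of Nhp2 and Nop10 between the lines after cyclic loess.

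The 2 abundant nucleolar proteins of the set both fell in alb-SREBP-1a∆P. Npm1, the histone chaperone nucleophosmin, ran from 7.36 to 8.50 (median 8.26) in C57Bl6, from 7.51 to 8.60 (8.11) in alb-SREBP-1a and from 6.90 to 8.07 (7.61) in alb-SREBP-1a∆P. The groups overlapped widely, and the spread within each genotype was among the larger ones of the set. Npm1 fell by 0.63 ± 0.18 against C57Bl6 (adjusted p = 0.0093) and by 0.61 ± 0.19 against alb-SREBP-1a (adjusted p = 0.0171), and neither call held after quantile normalization or cyclic loess. Ncl, nucleolin, fell by 0.57 ± 0.11 (adjusted p = 7.32e-04) and by 0.43 ± 0.10 (adjusted p = 0.00313) in the same comparisons. The call of Ncl against C57Bl6 remained under both scalings, and that between the lines was lost under both. In alb-SREBP-1a against C57Bl6 the values were −0.02 ± 0.19 for Npm1 and −0.14 ± 0.10 for Ncl, and neither passed the test.

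The UTP-A group binds the precursor RNA first and links its transcription to processing. All 5 members with this role fell in alb-SREBP-1a∆P against both other genotypes, with a median of −0.75 against C57Bl6 and −0.51 against alb-SREBP-1a. Wdr43 ranged from 7.38 to 7.87 (median 7.61) in C57Bl6, from 6.75 to 7.49 (7.29) in alb-SREBP-1a and from 6.46 to 7.09 (6.68) in alb-SREBP-1a∆P. Wdr75 ranged from 7.17 to 7.56 (7.39), from 6.67 to 7.50 (7.24) and from 6.55 to 6.76 (6.62) in the same order. Nol11, a partner of the vertebrate complex, ranged from 6.56 to 7.14 (7.00), from 6.22 to 7.06 (6.83) and from 5.76 to 6.27 (6.18). For all 3 genes the alb-SREBP-1a∆P arrays were clear of the C57Bl6 arrays and the alb-SREBP-1a arrays overlapped them. The alb-SREBP-1a∆P arrays of Wdr75 lay close together, with a standard deviation of 0.0691, against 0.143 in C57Bl6 and 0.292 in alb-SREBP-1a.

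Wdr43 fell by 0.93 ± 0.10 in alb-SREBP-1a∆P (adjusted p = 1.98e-06) and by 0.42 ± 0.11 in alb-SREBP-1a (adjusted p = 0.026), and it differed by −0.51 ± 0.12 between the lines (adjusted p = 0.00396). Wdr75 fell by 0.75 ± 0.07 (adjusted p = 7.22e-07) and Nol11 by 0.83 ± 0.10 (adjusted p = 7.68e-06) in alb-SREBP-1a∆P against C57Bl6. Against alb-SREBP-1a the differences were −0.51 ± 0.11 for Wdr75 and −0.60 ± 0.12 for Nol11. Utp15 and the large repeat protein Heatr1 fell by 0.63 ± 0.14 and 0.37 ± 0.10 against C57Bl6. Heatr1 was the smallest of these between the lines, at −0.24 ± 0.09 (adjusted p = 0.0444), and it stood at 0.01 ± 0.09 after cyclic loess. Against C57Bl6 the call of Heatr1 was lost after quantile normalization and cyclic loess, which left 4 of 5, and between the lines cyclic loess lost both Wdr43 and Heatr1, which left 3 of 5. Heatr1 also lost its call between the lines after quantile normalization and with the replicate number as a block. The same held without alb-SREBP-1a replicate 2, 3, 4, 6, 7 or 8, or alb-SREBP-1a∆P replicate 2, 3, 4, 7 or 8.

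The UTP-B subcomplex follows UTP-A onto the precursor, and both of its members in the set fell in alb-SREBP-1a∆P. Utp6 lay between 6.97 and 7.68 (median 7.32) in C57Bl6, between 6.75 and 7.34 (7.14) in alb-SREBP-1a and between 6.25 and 6.71 (6.49) in alb-SREBP-1a∆P. All alb-SREBP-1a∆P arrays were below all arrays of both other genotypes. The change was −0.78 ± 0.11 against C57Bl6 (adjusted p = 2.27e-05) and −0.58 ± 0.10 against alb-SREBP-1a (adjusted p = 4.85e-04). Utp18 lay between 5.75 and 6.47 (6.05) in C57Bl6, between 4.96 and 6.05 (5.91) in alb-SREBP-1a and between 4.56 and 5.83 (5.14) in alb-SREBP-1a∆P. Its arrays were spread more widely in both transgenic lines and the 3 ranges overlapped. Utp18 fell by 0.93 ± 0.17 against C57Bl6 (adjusted p = 4.30e-04) and by 0.59 ± 0.21 against alb-SREBP-1a (adjusted p = 0.0312). In alb-SREBP-1a against C57Bl6, −0.34 ± 0.16 for Utp18 and −0.20 ± 0.12 for Utp6 did not pass the test. Both genes kept their calls in alb-SREBP-1a∆P after quantile normalization and cyclic loess. Utp18 no longer passed between the lines without alb-SREBP-1a replicate 2, 3, 4, 6 or 7, or without alb-SREBP-1a∆P replicate 2, 3, 6 or 8. That call was also lost with the replicate number as a block.

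The other processome genes moved less evenly. Utp20, a scaffold of the particle, and Nol10 fell by 0.38 ± 0.08 and 0.41 ± 0.10 in alb-SREBP-1a∆P against C57Bl6, and by 0.41 ± 0.09 and 0.34 ± 0.10 against alb-SREBP-1a. Rrp9, a protein of the U3 particle, stood at 0.002 ± 0.093 and Nol6 at −0.02 ± 0.10 against C57Bl6. Rrp9 and Nol6 did not pass the test in any comparison. Utp3 was lower between the lines, at −0.39 ± 0.13 (adjusted p = 0.0264), and against C57Bl6 neither 0.26 ± 0.10 in alb-SREBP-1a nor −0.14 ± 0.13 in alb-SREBP-1a∆P passed the test. The call of Utp3 between the lines was lost without alb-SREBP-1a replicate 2 or 7, or without alb-SREBP-1a∆P replicate 3 or 6.

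Late maturation of the small subunit was represented by 3 genes, all lower in alb-SREBP-1a∆P against C57Bl6. Tsr1, a factor of cytoplasmic maturation, ranged from 6.80 to 7.25 (median 7.06) in C57Bl6, from 6.32 to 7.00 (6.80) in alb-SREBP-1a and from 6.16 to 6.55 (6.34) in alb-SREBP-1a∆P. The alb-SREBP-1a∆P arrays were clear of C57Bl6, with alb-SREBP-1a in between. Tsr1 fell by 0.68 ± 0.09 in alb-SREBP-1a∆P (adjusted p = 1.28e-05) and by 0.39 ± 0.10 against alb-SREBP-1a (adjusted p = 0.00536). Rrp12, which takes part in subunit export, fell by 0.29 ± 0.10 in alb-SREBP-1a∆P and by 0.21 ± 0.06 in alb-SREBP-1a (adjusted p = 0.0306), where all 8 arrays were below C57Bl6. Nob1, the nuclease that trims the end of the small subunit RNA, fell by 0.26 ± 0.09 in alb-SREBP-1a∆P and stood at −0.24 ± 0.08 in alb-SREBP-1a (adjusted p = 0.0514). Neither Rrp12 (−0.09 ± 0.10) nor Nob1 (−0.02 ± 0.10) passed the test between the lines. After cyclic loess 1 of the 3, Tsr1, was lower against C57Bl6 and none between the lines, and Nob1 also lost its call after quantile normalization. The call of Rrp12 in alb-SREBP-1a was lost with all 24 arrays in 1 fit, after median centring, and without C57Bl6 replicate 1, 3 or 7 or alb-SREBP-1a replicate 1 or 8. With the replicate number as a block, its calls in both comparisons against C57Bl6 were lost.

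Among the 8 large subunit assembly genes, 6 fell in alb-SREBP-1a∆P against C57Bl6 and 7 against alb-SREBP-1a. Brix1 stood between 7.54 and 8.31 (median 7.98) in C57Bl6, between 6.88 and 7.75 (7.59) in alb-SREBP-1a and between 6.12 and 6.86 (6.33) in alb-SREBP-1a∆P. All alb-SREBP-1a∆P arrays were below every other array, by a narrow margin to alb-SREBP-1a. Brix1 fell by 1.56 ± 0.13 in alb-SREBP-1a∆P (adjusted p = 1.48e-07) and by 0.56 ± 0.15 in alb-SREBP-1a (adjusted p = 0.0229), and the lines differed by −1.00 ± 0.16 (adjusted p = 2.62e-04). The GTPase Gnl3, nucleostemin, fell by 0.65 ± 0.11 against C57Bl6, Rrp15 by 0.61 ± 0.14, Rrp1 by 0.47 ± 0.11, Nip7 by 0.32 ± 0.11 and Ebna1bp2 by 0.32 ± 0.11. These 5 genes were also lower than in alb-SREBP-1a, from −0.51 ± 0.11 (Rrp1) to −0.27 ± 0.09 (Nip7). Mrto4, a relative of a ribosomal stalk protein, was lower only between the lines among the comparisons made, at −0.33 ± 0.11 (adjusted p = 0.0179), as was its second probe set, at −0.41 ± 0.12 (adjusted p = 0.0114). After cyclic loess 3 of the 8 genes (Brix1, Gnl3 and Rrp15) were lower against C57Bl6 and 2 (Brix1 and Rrp15) between the lines. Quantile normalization lost Ebna1bp2 against C57Bl6 and Gnl3 between the lines. The call of Ebna1bp2 against C57Bl6 was also lost without C57Bl6 replicate 2, 4, 6 or 8, or without alb-SREBP-1a∆P replicate 4, 6 or 8. With the replicate number as a block it was lost too, as were the calls of Nip7 against C57Bl6 and of Gnl3 between the lines.

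Rrs1 varied widely within genotypes. It ranged from 5.51 to 7.05 (median 5.94) in C57Bl6, from 4.44 to 5.93 (5.81) in alb-SREBP-1a and from 5.46 to 6.08 (5.82) in alb-SREBP-1a∆P. The medians were close. Replicates 1 (7.05) and 5 (6.80) were high in C57Bl6, and replicates 6 (4.44), 5 (5.15) and 8 (5.40) were low in alb-SREBP-1a. Rrs1 had the most negative estimate of the set in alb-SREBP-1a against C57Bl6, −0.58 ± 0.25, and did not pass the test there (adjusted p = 0.152) or in the other comparisons.

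The PeBoW complex processes the RNA of the large subunit, and all of its 3 genes fell in alb-SREBP-1a∆P against C57Bl6. The changes were −0.50 ± 0.11 for Pes1, −0.48 ± 0.11 for Wdr12 and −0.29 ± 0.08 for Bop1. All alb-SREBP-1a∆P arrays of Pes1 lay below C57Bl6. Between the lines Pes1 differed by −0.36 ± 0.12 (adjusted p = 0.0202), whereas −0.21 ± 0.13 for Wdr12 (adjusted p = 0.18) and −0.15 ± 0.06 for Bop1 (adjusted p = 0.0604) did not pass the test. A second, dimmer probe set of Wdr12 was lower in both comparisons, at −0.78 ± 0.16 (adjusted p = 8.48e-04) and −0.42 ± 0.14 (adjusted p = 0.0206). Against C57Bl6 the calls of Pes1 and Bop1 were lost after cyclic loess and that of Bop1 after quantile normalization, and Pes1 between the lines was lost under both.

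**Figure D2:**
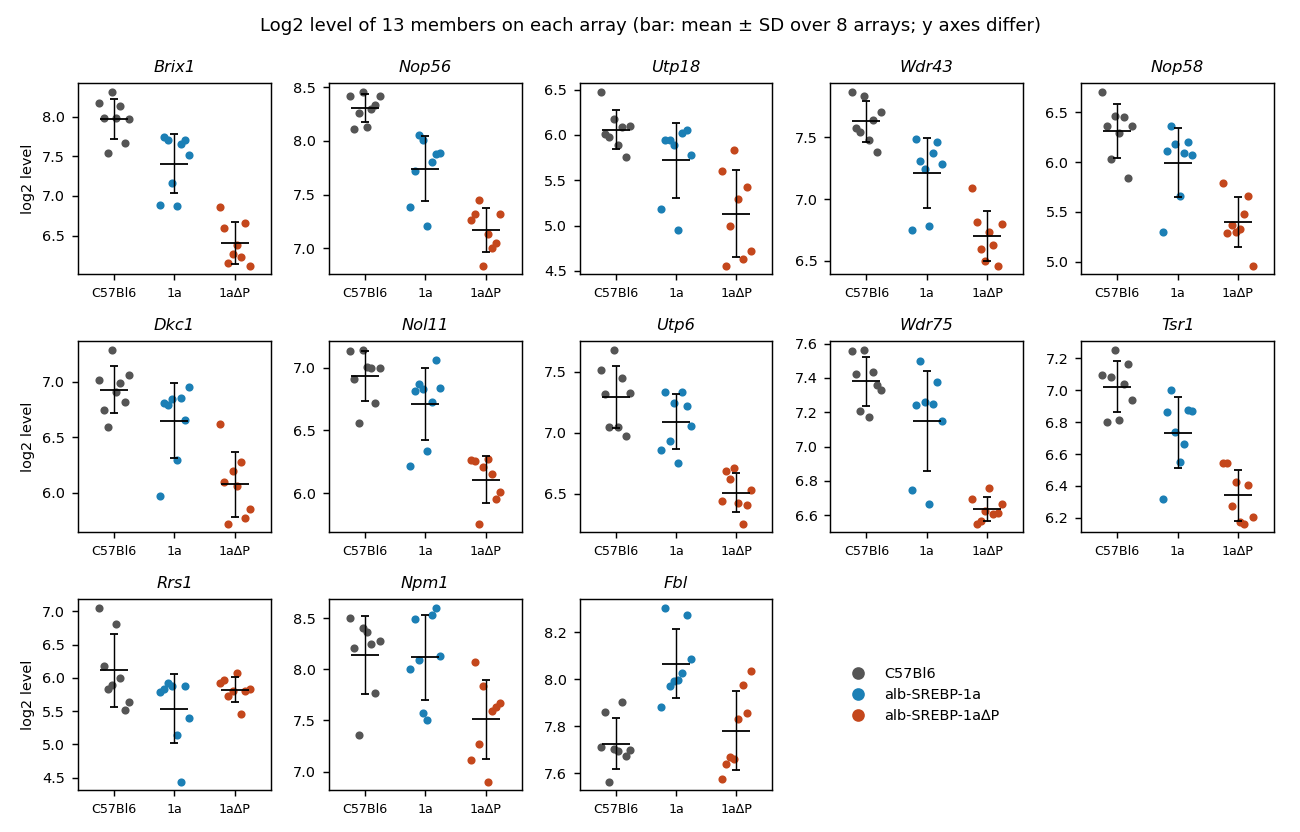
Log2 level (y axis, scale of its own in each panel) of 13 members on each of the 24 arrays, 1 point per array, with mean ± SD over the 8 arrays of each genotype (x axis). Alb-SREBP-1a∆P arrays of Brix1 (6.12 to 6.86) and Utp6 (6.25 to 6.71) lie below all other arrays, while Rrs1 and Npm1 overlap. The brightest probe set of Fbl, shown here, is highest in alb-SREBP-1a, and its second probe set is not.

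Separation by array gave the same order of the comparisons as the counts. Of the 35 members, 12 had all 8 alb-SREBP-1a∆P arrays below all C57Bl6 arrays, where 6.47% of all probe sets did: Nop56, Nop58, Nhp2, Pes1, Wdr43, Wdr75, Nol11, Utp6, Utp20, Tsr1, Brix1 and Gnl3. Between the lines 4 members separated in this way (Nop10, Utp6, Brix1 and Rrp15), beside 4.06% of all probe sets. In alb-SREBP-1a against C57Bl6 there were 2, Nop56 and Rrp12, beside 1.03%. No member had all arrays of a transgenic line above C57Bl6, but the share of all probe sets above in this way was not counted.

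The pattern over the comparisons was shared by most members. There were 20 that did not pass the test in alb-SREBP-1a against C57Bl6 and were lower in alb-SREBP-1a∆P against both genotypes, and 3, Nop56, Wdr43 and Brix1, that were lower in all 3 comparisons. Of these, Brix1 kept its calls under quantile normalization, median centring and cyclic loess, whereas Nop56 and Wdr43 lost theirs between the lines after cyclic loess. Wdr43 in alb-SREBP-1a was lost after median centring and without C57Bl6 replicate 1 or 4. With the replicate number as a block, both Wdr43 and Brix1 lost their calls in alb-SREBP-1a. Gar1, Bop1, Wdr12 and Nob1 passed only in alb-SREBP-1a∆P against C57Bl6, and Rrp12 only in both comparisons against C57Bl6. Rrp9, Nol6 and Rrs1 passed in none. The share of all probe sets with each of these patterns was not counted, so how far the members exceed the array is not known here. In 33 of 35 members alb-SREBP-1a∆P had the lower mean of the transgenic lines, the others being Rrp9 and Rrs1. The same held for 15588 of all 35556 probe sets and for 12103 of the 17778 above the median level. The direct test of the lines is that of the third comparison, in which 27 passed. After cyclic loess 12 members were lower there, with 10.4% of all probe sets lower, and after quantile normalization 21, with 13.8%.

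**Figure D3:**
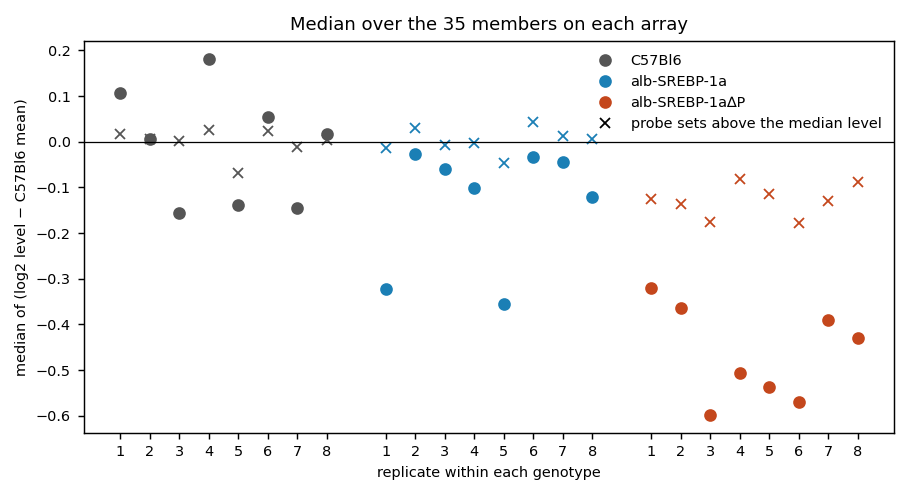
Median over the 35 members of the log2 level minus the C57Bl6 mean (y axis, log2 units) on each array, by replicate within genotype (x axis, circles), with the same median over the 17778 probe sets above the median level (crosses). The alb-SREBP-1a∆P arrays run from −0.60 to −0.32 for the members, below the crosses of the same arrays, and 2 alb-SREBP-1a arrays, at −0.36 and −0.32, lie apart from the other 6.

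Taken over all members, each array gave a median deviation from the C57Bl6 mean. It ran from −0.16 to 0.18 in C57Bl6 and from −0.60 to −0.32 in alb-SREBP-1a∆P, where 30 to 35 of the members were below the C57Bl6 mean on each array. In alb-SREBP-1a it ran from −0.36 to −0.03, with replicates 5 (−0.36) and 1 (−0.32) at the low end, near the highest alb-SREBP-1a∆P array. These 2 arrays also gave the lowest alb-SREBP-1a values of Brix1, Nop56, Nop58, Wdr43, Wdr75, Dkc1, Nol11, Utp6, Utp18 and Tsr1. Leaving out replicate 1 or replicate 5 gave 3 or 4 lower members in alb-SREBP-1a against C57Bl6, against 4 with all arrays, and 27 between the lines either way. Without C57Bl6 replicate 1 the count was 2, with Wdr43 and Rrp12 no longer passing. Without C57Bl6 replicate 2, Nop10 joined Fbl among the higher members, a count of 2 in place of 1.

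Other genes of ribosome production behaved much like the members in alb-SREBP-1a∆P liver. Like the members, they were chosen with earlier results of these data known, so this likeness is no independent result. Of 131 genes measured, which include 11 of the regulatory MYC network, 100 were lower against C57Bl6 (76.3%) and 1 higher, with a median of −0.43. The 1 higher gene belonged to the MYC network. Between the lines 90 were lower and 3 higher, and in alb-SREBP-1a against C57Bl6 16 were lower and 5 higher. The MYC network held 1 of these 3 and 2 of these 5 higher genes. By list, 30 of 35 further processome genes, 30 of 40 large subunit genes and 13 of 15 exosome and nuclease genes were lower in alb-SREBP-1a∆P against C57Bl6. So were 13 of 14 export and cytoplasmic genes, 9 of 16 RNA polymerase I genes and 5 of 11 MYC network genes. The background shares given above for the members apply here too.

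In that comparison the genes with the smallest p of each list all fell in the RNA polymerase I, processome, large subunit, exosome and export lists. They were the polymerase subunits Polr1c (−0.67 ± 0.10), Polr1b (−0.56 ± 0.09) and Polr1a (−0.48 ± 0.08), and the processome genes Mphosph10 (−0.74 ± 0.10), Pdcd11 (−0.66 ± 0.09) and the helicase Ddx47 (−0.62 ± 0.07). Large subunit genes were led by the GTPase Gtpbp4 (−1.31 ± 0.09, adjusted p = 9.44e-09), with Ftsj3 (−0.89 ± 0.08) and Noc3l (−0.80 ± 0.09). Of the exosome list these were Exosc7 (−0.85 ± 0.10), the helicase Mtrex (−0.85 ± 0.13) and Exosc2 (−0.79 ± 0.10), and of the export list the adaptor Nmd3 (−0.75 ± 0.07), Eif6 (−0.61 ± 0.08) and the exportin Xpo1 (−0.57 ± 0.09). All alb-SREBP-1a∆P arrays of these genes were below all C57Bl6 arrays, except that 7 of 8 were for Polr1c. The genes were picked by p in this same comparison, so this separation is no further result about the lists.

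Between the lines the smallest p belonged to Taf1a (−0.68 ± 0.12), Ubtf (−0.36 ± 0.07) and Polr1b (−0.38 ± 0.09) of the RNA polymerase I list, and to Utp11 (−0.78 ± 0.13), Utp14a (−0.71 ± 0.13) and Dcaf13 (−0.66 ± 0.09) of the processome. They further belonged to Nvl (−0.73 ± 0.10), Gtpbp4 (−0.71 ± 0.11) and Rpf1 (−0.58 ± 0.09) of the large subunit list, Exosc8 (−0.72 ± 0.13), Exosc7 (−0.70 ± 0.11) and Exosc1 (−0.65 ± 0.08) of the exosome, and Riok1 (−0.65 ± 0.12), Ltv1 (−0.60 ± 0.11) and Nmd3 (−0.51 ± 0.08) of the export list. In alb-SREBP-1a against C57Bl6 the genes of smallest p that fell were Gtpbp4 (−0.60 ± 0.11), Polr1c (−0.55 ± 0.09), Exosc2 (−0.45 ± 0.09), Nop2 (−0.44 ± 0.09), Pwp2 (−0.40 ± 0.07), Eif6 (−0.39 ± 0.07), the acetyltransferase Nat10 (−0.38 ± 0.06) and Wdr74 (−0.33 ± 0.08). Noc4l (0.37 ± 0.06) and Exosc5 (0.30 ± 0.08) rose. Polr1a (−0.23 ± 0.07), Polr1b (−0.18 ± 0.07), Exosc10 (0.23 ± 0.08), Nmd3 (−0.24 ± 0.08) and the growth control kinase Mtor (0.18 ± 0.06), listed with the export genes, did not pass the test.

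**Figure D4:**
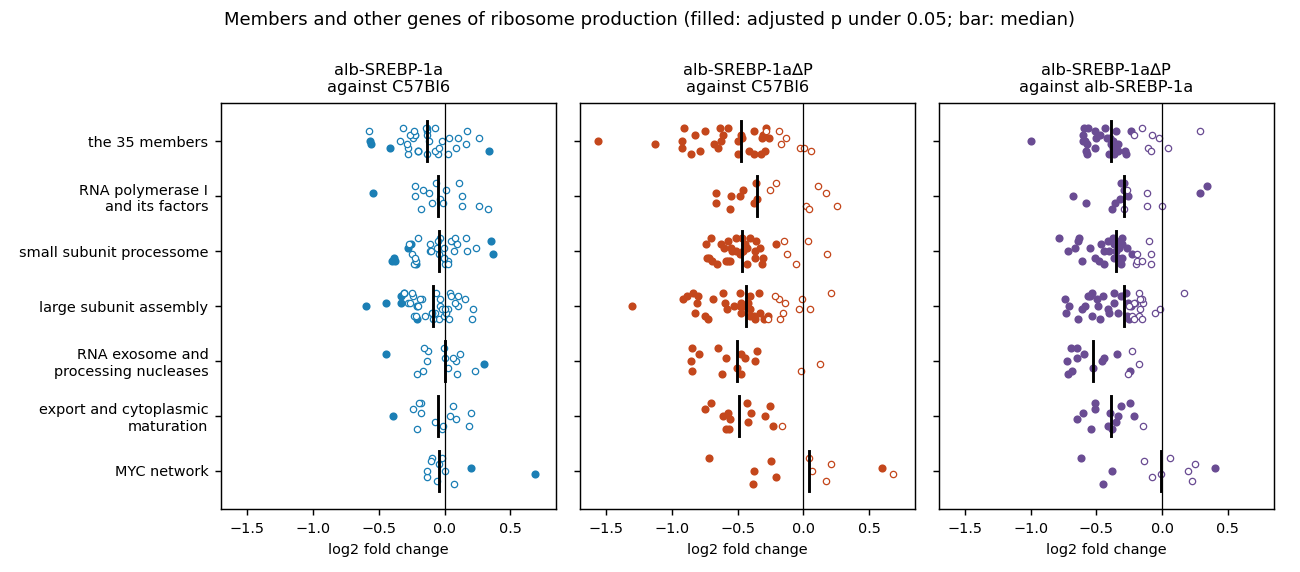
Log2 fold change (x axis) of the 35 members and of 131 other genes of ribosome production in 6 lists (y axis) for the 3 comparisons, 1 point per gene, filled where the adjusted p was under 0.05, with the median of each list as a bar. In alb-SREBP-1a∆P against C57Bl6 the medians of the members (−0.48) and of 5 of the 6 lists lie left of 0, and that of the MYC network (0.04) does not.

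The transcription factor MYC is a known activator of ribosome biogenesis genes, and its network was listed for that reason. Myc ranged from 5.55 to 6.03 (median 5.78) in C57Bl6, from 5.87 to 7.61 (6.28) in alb-SREBP-1a and from 5.11 to 8.26 (6.13) in alb-SREBP-1a∆P. The arrays of both transgenic lines were far more spread than the controls. Myc rose by 0.69 ± 0.20 in alb-SREBP-1a (adjusted p = 0.0349), stood at 0.68 ± 0.34 in alb-SREBP-1a∆P (adjusted p = 0.105) and differed by −0.01 ± 0.39 between the lines (adjusted p = 0.99). The MYC antagonist Mnt rose by 0.60 ± 0.07 in alb-SREBP-1a∆P and 0.20 ± 0.06 in alb-SREBP-1a, and by 0.40 ± 0.07 between the lines. Max, the obligate partner of MYC, fell by 0.71 ± 0.10 in alb-SREBP-1a∆P against C57Bl6 and by 0.62 ± 0.13 between the lines, and Mlx fell by 0.38 ± 0.09 and 0.45 ± 0.09. In alb-SREBP-1a, Mxd4 stood at −0.13 ± 0.06 and did not pass the test. Of the 11 network genes 5 fell and 1 rose in alb-SREBP-1a∆P against C57Bl6.

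MYC and MAX bind the E-box CACGTG, so this hexamer was searched in the RefSeq promoter windows of the members (250 bases before to 50 after the transcription start, GRCm38.p6), with the element TCGCGAGA of housekeeping promoters and TCACNCCAC, a form of the sterol regulatory element. Both strands were read, and no matches overlapped in the members. Windows were found for 28 of 35 members. The E-box was present in 6 of 28 member genes (21.4%) and in 8.09% of all 27025 genes, TCGCGAGA in 2 (7.14%) and in 1.13%, and TCACNCCAC in 0 and in 1.44%. A match describes the letters and not a bound site. The matched sites are shown with 30 bases each, in the direction of the gene, with the motif in capitals:
Nol11 (chr11:107189407-107189436, minus strand): cttgagcgttcgCACGTGgtctagactcca
Pes1 (chr11:3963965-3963994, plus strand): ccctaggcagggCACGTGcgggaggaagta
Tsr1 (chr11:74898092-74898121, plus strand): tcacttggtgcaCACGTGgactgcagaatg
Utp18 (chr11:93885769-93885798, minus strand): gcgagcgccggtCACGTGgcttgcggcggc
Utp20 (chr10:88826765-88826794, minus strand): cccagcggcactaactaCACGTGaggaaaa
Wdr43 (chr17:71616220-71616249, plus strand): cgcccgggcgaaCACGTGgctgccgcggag
Nop58 (chr1:59684843-59684872, plus strand): aaaaaaaaaagTCTCGCGAtattttaaggc
Tsr1 (chr11:74898002-74898031, plus strand): ggcaaaaaaccTCGCGAGAggtcgcggaag

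The E-boxes of Nol11 and Utp18 began 43 and 20 bases before the start, and those of Pes1, Wdr43, Tsr1 and Utp20 began 2, 17, 24 and 37 bases after it. The element of Nop58, read here on its other strand, and that of Tsr1 began 152 and 67 bases before the start. All 6 members with an E-box fell in alb-SREBP-1a∆P against C57Bl6, with a median of −0.75, as did 18 of the 22 members whose window held none, with a median of −0.47. This difference between members with and without the hexamer was not tested.

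Several members hold small nucleolar RNA genes within the bounds of their own gene, by RefSeq position. The strand was not checked. Of the 19 found there, 4 had a probe set with a single symbol. Snord57, inside Nop56, stood between 11.4 and 12.3 (median 12.0) in C57Bl6, between 12.6 and 13.2 (13.0) in alb-SREBP-1a and between 13.1 and 13.4 (13.3) in alb-SREBP-1a∆P. The arrays of both lines lay above all C57Bl6 arrays. Snord57 rose by 1.06 ± 0.12 in alb-SREBP-1a (adjusted p = 2.77e-05), by 1.36 ± 0.11 in alb-SREBP-1a∆P (adjusted p = 1.08e-07) and by 0.30 ± 0.08 between the lines (adjusted p = 0.00631), while its host Nop56 fell in all 3 comparisons.

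Snord82, inside Ncl, ranged from 9.92 to 10.8 (median 10.5) in C57Bl6, from 9.52 to 11.3 (11.0) in alb-SREBP-1a and from 11.1 to 11.7 (11.4) in alb-SREBP-1a∆P. It rose by 0.94 ± 0.12 in alb-SREBP-1a∆P (adjusted p = 9.13e-06) and by 0.65 ± 0.20 between the lines (adjusted p = 0.016), with 0.29 ± 0.21 in alb-SREBP-1a. Snord53, inside Wdr43, ranged from 7.72 to 8.57 (8.17), from 7.41 to 9.63 (9.15) and from 8.89 to 9.59 (9.17). For both genes the alb-SREBP-1a∆P arrays were clear of C57Bl6 and alb-SREBP-1a overlapped with it. Snord53 rose by 1.03 ± 0.13 in alb-SREBP-1a∆P (adjusted p = 1.34e-05), with 0.79 ± 0.25 in alb-SREBP-1a (adjusted p = 0.0515) and 0.25 ± 0.24 between the lines. Snora75, also inside Ncl, did not pass the test in any comparison, with −0.07 ± 0.15 in alb-SREBP-1a∆P against C57Bl6. The share of all probe sets that rose in this comparison, 27.0%, is the background for these counts. The share with all arrays above C57Bl6 was not counted.

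**Figure D5:**
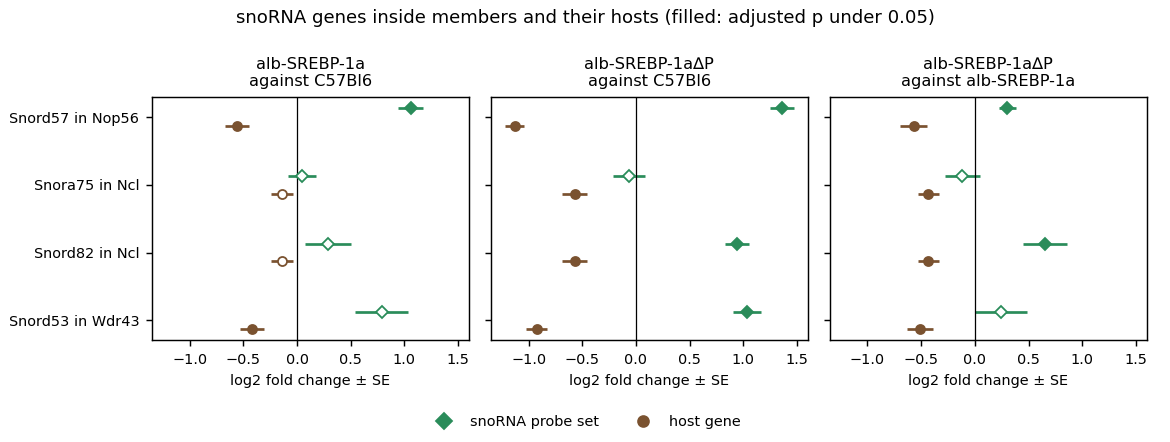
Log2 fold change ± standard error (x axis) of 4 small nucleolar RNA probe sets (diamonds) and of the member gene that contains each (circles) in 3 comparisons, filled where the adjusted p was under 0.05. Snord57 in Nop56, Snord82 in Ncl and Snord53 in Wdr43 lie right of 0 in alb-SREBP-1a∆P (1.36, 0.94 and 1.03) while their hosts lie left of 0.

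Markers of other cell types differed between genotypes in part, and their part in the members' values was not tested. In alb-SREBP-1a∆P against C57Bl6, 27.0% of all probe sets rose and 20.2% fell. There 3 of 8 Kupffer cell and macrophage markers rose (median 0.16, from −0.13 for Csf1r to 0.58 for Cd68). Of 8 lymphocyte markers 3 rose (median 0.19, from −0.05 for Ms4a1 to 0.70 for Klrb1c). Several lymphocyte markers were dim, with C57Bl6 means of 3.14 (Klrb1c), 3.99 (Cd79a) and 4.24 (Cd3d), below the median probe set at 5.61. Of 6 sinusoidal endothelial markers 1 rose and 1 fell (−0.54 for Clec4g to 0.35 for Lyve1), of 6 stellate cell markers 1 fell (−0.27 for Dcn to 0.21 for Col1a1) and none of 4 cholangiocyte markers passed (0 also at an unadjusted p under 0.05, −0.15 for Sox9 to 0.04 for Krt19). Of 5 genes of dividing cells 1 rose (Ccna2, 0.45), and the lowest was Cdk1 at −0.02. In alb-SREBP-1a, where 6.77% of all probe sets rose, 4 of 8 Kupffer cell markers rose, from 0.12 for Csf1r to 0.78 for Cd68. There 2 of 6 endothelial markers rose, with a median of 0.22 and from −0.27 for Clec4g to 0.39 for Cdh5. Between the lines 21.4% of all probe sets fell and 22.8% rose. Of the markers, 3 of 8 Kupffer cell and 3 of 6 endothelial ones fell there, with medians of −0.25 and −0.27. Of 6 stellate cell markers 3 fell and 1 rose (Col1a1, 0.27), and 1 of 8 lymphocyte markers (Klrb1c, 0.45) and 1 of 5 genes of dividing cells (Ccna2, 0.43) rose.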

How the data were processed

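Liver RNA of 24 mice was hybridised to Affymetrix Mouse Gene 1.0 ST arrays. The deposited log2 values were computed by the authors with RMA in Affymetrix Expression Console. The RMA settings and the build of the annotation were not given in the sources used here. There were 35556 probe sets without a missing value, of which 21789 carry 1 symbol in the annotation, 1621 several and 12146 none. Genes were read from the brightest probe set with 1 symbol. The correlation of arrays ran from 0.917 to 0.990, none was left out, and the number of arrays limits precision.

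Each comparison was fitted as 8 against 8 arrays with limma 3.58.1 in R 4.3.3, with Benjamini-Hochberg adjustment over all probe sets, and the fit was tested on simulated data. The p-values rest on the spread among the 8 mice within each genotype, pooled over the genotypes compared. Limma moderates this spread by that of all probe sets. The members and gene lists were chosen with earlier results of these data known. Values of every genotype are given for the 10 members of largest change in alb-SREBP-1a∆P against C57Bl6, the 4 of largest change in each other comparison and every member called against the majority. Of the other lists the 3 genes of smallest p per comparison are named, with Myc, the extreme cell markers and the small nucleolar RNAs inside members. Polr1f, Polr1g, Polr1h and Znf622 were matched by their older symbols. Rrp7a, Noc2l, Cebpz, Ppan, Npm3, Exosc6, Spp1 and Ccnb1 had no such probe set and were not analysed here. Promoter windows and snoRNA positions come from RefSeq tables. Alternatives were 3 scalings, 1 fit of all arrays, the replicate number as a block, a filter on dim probe sets, a variance trend, array weights, other ways to count genes, each array left out, and the methods' t-test. Tables and figures were made with Python 3.11.15, pandas 2.3.3 and matplotlib 3.10.9.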

Additional observations from a re-analysis of the deposited data

Results flagged for a closer look

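In 105 sets of 8 arrays (35 members in 3 genotypes), 6 held an array that stood apart by Dixon's criterion, which chance alone meets in about 1 in 20 sets. Gar1 was lowest in alb-SREBP-1a replicate 3, at 6.71 with the next array at 7.00, and in alb-SREBP-1a∆P replicate 3, at 6.49 with the next at 6.90. Nop10 was highest in C57Bl6 replicate 2, at 10.5 with the next at 10.2. Utp3 was lowest in C57Bl6 replicate 3, at 5.45, and Rrp9 in alb-SREBP-1a replicate 1, at 6.28. Rrp1 was highest in alb-SREBP-1a∆P replicate 1, at 8.33 with the next array at 7.96. The call of Gar1 in alb-SREBP-1a∆P against C57Bl6 was lost without alb-SREBP-1a∆P replicate 3, but also without C57Bl6 replicate 4, 5, 6 or 8, and after quantile normalization or cyclic loess. Without C57Bl6 replicate 2, Nop10 was added to the higher members in alb-SREBP-1a.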

How the results depend on the processing

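The count of 28 lower members in alb-SREBP-1a∆P against C57Bl6 was 18 after cyclic loess (with 1 higher) and 14 by the methods' t-test with an unadjusted p and a 1.5-fold change. That of 27 between the lines was 12 and 5. Of all probe sets, 15.3% and 6.66% were lower against C57Bl6 under these settings, and 10.4% and 4.09% between the lines. The 4 lower members in alb-SREBP-1a were 7 after quantile normalization, 2 after median centring and 0 by the methods' t-test with fold, and the 1 higher member was 0 by that test and when a gene's probe sets were averaged. The shares of all probe sets lower in alb-SREBP-1a were 5.63%, 3.22% and 0.951% under these scalings and that test. The cause of these changes in count was not tested. Heatr1 turned to 0.0082 between the lines after cyclic loess. Leaving out 1 array gave 26 to 29 and 24 to 27 lower members in the comparisons of alb-SREBP-1a∆P with C57Bl6 and with alb-SREBP-1a, with 0 higher. In alb-SREBP-1a it gave 2 (without C57Bl6 replicate 1) to 6 lower and 1 to 2 higher (2 without C57Bl6 replicate 2). Same-numbered arrays were not paired by the labels, and their deviations correlated by −0.12 to 0.28. With the replicate block 1 member (Nop56) was lower in alb-SREBP-1a, 25 were in the phosphosite-deleted line against C57Bl6 and 24 between the lines. The shares of all probe sets lower with the block were 3.17%, 19.6% and 18.5% in the same order. For alb-SREBP-1a∆P against C57Bl6, scaling moved the median of all probe sets from 0.11 to −0.03 (quantile), −0.05 (centring) and −0.004 (cyclic loess), and the members' median from −0.48 to −0.42, −0.64 and −0.31. The share of higher calls there was 57.1%, 40.6%, 31.9% and 51.2%, between the lines 51.6%, 41.1%, 23.9% and 52.2%, and in alb-SREBP-1a 63.0%, 51.6%, 66.8% and 56.8%.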
